A study of Mus musculus with 14 samples.

Results

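Expression was examined for 8 mouse genes of fatty acid breakdown and of the fasting program that feeds it, namely Cpt1a, Acadm, Angptl4, Pdk4, Ppara, Ehhadh, Creb3l3 and Plin2. They were taken by name: every probe on the array that was not a control and whose gene name equalled one of the 8 was used, which gave 11 probes of 55681 on the array, and 8 gene names of 36162. The set carries the name of fatty acid oxidation and ketogenesis, but none of the 8 encodes an enzyme that makes ketone bodies, and the other genes of the pathways are given further below from lists.

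RNA from 14 samples in 5 groups was hybridised to one-color mouse expression arrays. The groups were whole small intestine of C57BL/6J mice (3 arrays), whole adenomas large enough to be seen by eye from APCmin/+ mice (3 arrays), whole tissue next to such adenomas from the same strain (2 arrays), whole colon of C57BL/6J mice (3 arrays), and CT26, an ATCC colorectal cancer cell line of BALB/c origin grown in culture (3 arrays). APCmin/+ mice carry a truncating mutation in 1 copy of Apc on the C57BL/6J background and grow adenomas mainly in the small intestine. The study set small intestine, adjacent tissue and adenoma side by side as a model of early tumor growth, and colon beside CT26 as a model of an advanced tumor. The labels name no treatment, and the methods allow for an analgesic in APCmin/+ mice that suffered, without saying which received it. Mice ate and drank freely and the wild type animals were adults, per the methods, while the age of the APCmin/+ mice was not given in the sources used here. The sample list of the study places all array samples of adenoma and adjacent tissue under a single APCmin/+ mouse, whereas the methods name several such mice for the study as a whole. By that list they are pieces of 1 animal, and a difference between them and small intestine cannot be told apart from a difference between that mouse and the C57BL/6J mice. The same list places 1 colon sample under an APCmin/+ mouse, whereas the array labels give C57BL/6J for all 3. CT26 is 1 line, nothing says that its 3 samples were separate cultures, and its contrast with colon also sets cultured cells against whole tissue and BALB/c against C57BL/6J.

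Fatty acids are activated to acyl-CoA, moved across the mitochondrial membrane as carnitine esters, and shortened inside the mitochondrion by beta-oxidation, while peroxisomes shorten the very long and dicarboxylic ones. The nuclear receptor PPAR-alpha, which senses fatty acids, switches on many genes of both routes, and the liver and the absorptive enterocytes of the small intestine are rich in this program. Ketone bodies are made from the acetyl-CoA that results, in liver and to a lesser degree in gut epithelium.

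Levels are given as log2 of the processed signal after subtraction of the 75th percentile of the same array, so that 0 is the level of that percentile and a step of 1 is a doubling of signal. They compare a gene between arrays, and they do not rank 1 gene above another, because each probe has its own brightness. A gene was called changed when its log2 difference reached 1.2 in size with an adjusted p of at most 0.01 in limma's moderated test with Benjamini-Hochberg adjustment over all probes tested, and all adjusted p-values below are of that kind. The p-values measure the spread between these samples only, which is in part, by that list, the spread between pieces of 1 mouse, and for CT26 between samples of 1 line. In whole tissue, fewer cells of a type and less RNA per cell cannot be told apart. Probe positions below are on NCBI37/mm9, as the scanner files give them, and no annotation of that build was used to place them in exons. All 8 genes were measured on all 14 arrays with no saturated spot. Cpt1a, Acadm, Angptl4, Ppara and Plin2 were well above background on all 14 arrays, and Pdk4, Ehhadh and Creb3l3 on the 11 tissue arrays and on none of the 3 CT26 arrays.

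1 colon array stood apart and bears on every comparison with colon. Colon replicate 3 read a median of -4.61 over 9 colonocyte markers against 5.59 and 5.11 on the other colon arrays, and a median of 4.76 over 10 enterocyte markers of the small intestine against -1.21 and -0.67. Results with colon are therefore given with and without it.

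**Figure D1:**
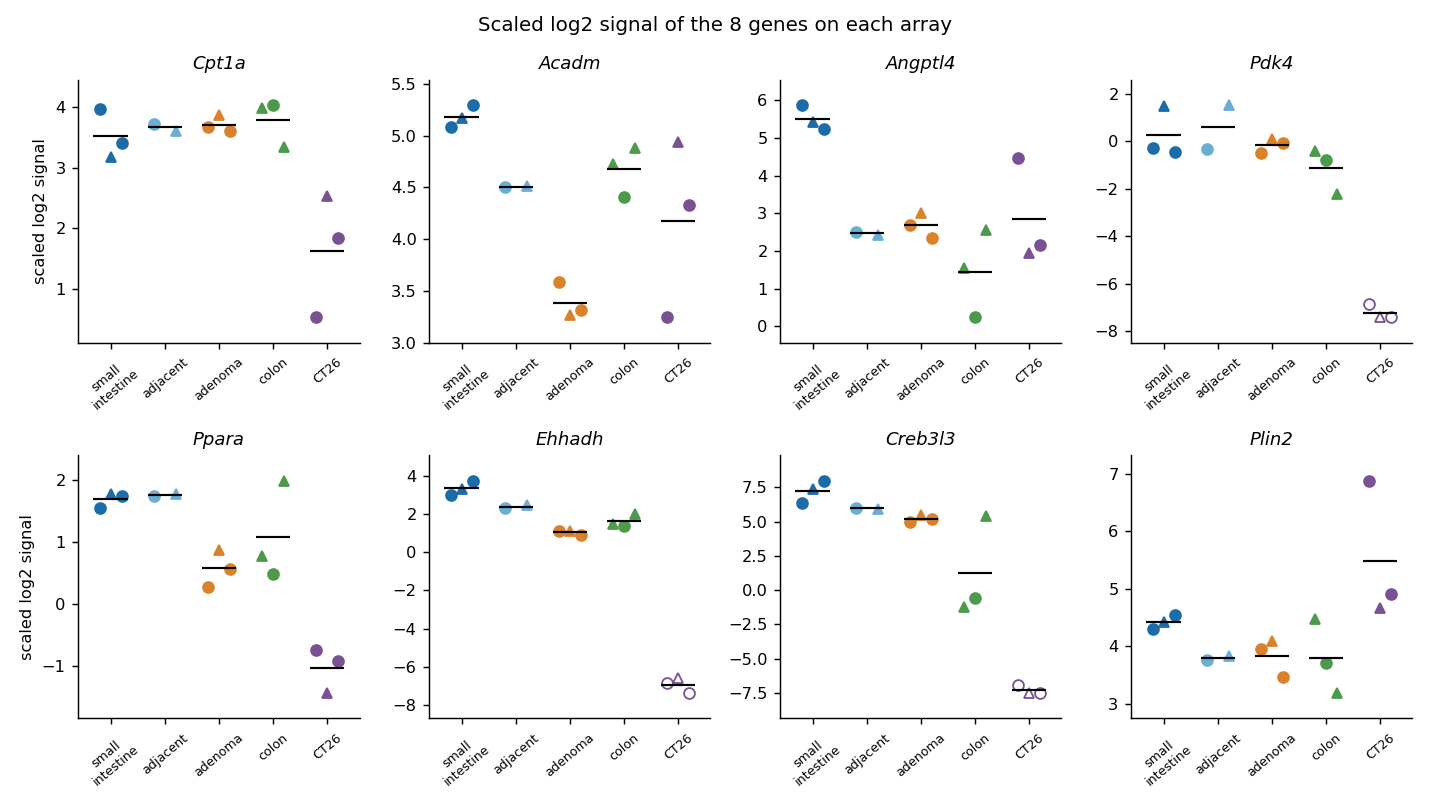
Scaled log2 signal (y axis) of each of the 8 genes on all 14 arrays by group (x axis); circles are arrays on slide 1, triangles arrays on slide 2, bars are group means, and open symbols mark groups in which the probe was not well above background on any array. Ehhadh steps down from small intestine to adjacent tissue to adenoma, Angptl4 is high in small intestine alone among the 5 groups, and Pdk4, Ehhadh and Creb3l3 drop to background in CT26.

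The promoters of 4 genes are shown because 3 of them (Acadm, Ehhadh, Creb3l3) belong to genes that were lower in adenoma than in small intestine and the fourth, Cpt1a, to one that did not pass that test. Each runs from 250 bases before to 50 bases after a transcription start, 5′ to 3′ on the strand of the gene, as RefSeq gives it on GRCm38.p6. Capitals mark the hexamer AGGTCA, the core that nuclear receptors of the PPAR kind bind as a repeat, read on either strand (on the opposite strand it is spelled TGACCT).
Acadm, chr3:153944594-153944893, minus strand: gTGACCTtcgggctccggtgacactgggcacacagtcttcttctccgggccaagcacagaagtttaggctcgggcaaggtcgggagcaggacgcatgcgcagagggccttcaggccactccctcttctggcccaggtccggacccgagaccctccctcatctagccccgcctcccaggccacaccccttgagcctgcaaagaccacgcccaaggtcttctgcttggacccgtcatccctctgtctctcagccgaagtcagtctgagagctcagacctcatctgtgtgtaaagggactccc
Ehhadh, chr16:21787785-21788084, minus strand: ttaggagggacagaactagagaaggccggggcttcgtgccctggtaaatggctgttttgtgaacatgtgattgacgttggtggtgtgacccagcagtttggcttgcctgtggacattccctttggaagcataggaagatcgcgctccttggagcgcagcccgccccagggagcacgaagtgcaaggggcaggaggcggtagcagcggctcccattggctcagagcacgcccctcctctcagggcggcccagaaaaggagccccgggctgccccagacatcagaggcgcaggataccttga
Creb3l3, chr10:81092542-81092841, minus strand: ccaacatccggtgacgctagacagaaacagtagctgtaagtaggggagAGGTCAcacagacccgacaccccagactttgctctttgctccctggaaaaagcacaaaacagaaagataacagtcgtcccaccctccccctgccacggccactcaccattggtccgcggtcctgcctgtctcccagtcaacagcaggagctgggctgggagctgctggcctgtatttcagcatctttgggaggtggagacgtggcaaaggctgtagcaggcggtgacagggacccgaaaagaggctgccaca
Cpt1a, chr19:3323051-3323350, plus strand: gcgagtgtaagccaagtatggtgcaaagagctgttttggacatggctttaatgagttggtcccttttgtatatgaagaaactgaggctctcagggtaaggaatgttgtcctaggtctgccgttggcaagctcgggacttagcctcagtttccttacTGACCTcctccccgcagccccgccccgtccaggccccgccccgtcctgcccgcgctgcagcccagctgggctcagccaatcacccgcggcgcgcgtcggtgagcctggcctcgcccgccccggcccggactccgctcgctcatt
The table held 8 promoters for 7 of the genes (Creb3l3 has 2 starts) and none for Angptl4. The hexamer was found in 4 of the 8, those of Acadm at bases -249 to -244, Plin2 at -218 to -213, Creb3l3 at -202 to -197 and Cpt1a at -94 to -89 from the start, against 16.3% of all 32851 promoters of the same length. The direct repeat AGGTCANAGGTCA was in none of the 8 (0.0396% of all promoters), and neither was the relaxed form AGGNCANAGGNCA (0.381% of all) nor TGACGTCA, the site of CREB family factors (1.79% of all). These are matches of letters in 1 window and say nothing of binding. The hexamer occurs in genes that were lower in adenoma and in genes that were not, and Ehhadh, which was lower, has none in this window. GC content was 62.3% for Acadm, 62.3% for Cpt1a, 60.7% for Ehhadh, 57.7% for the Creb3l3 start shown and 74.7% for Ppara, against a median of 52.7% over all promoters.

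Ppara encodes the receptor PPAR-alpha itself. Its brightest probe (chr15:85632534-85632593) read 1.55, 1.77 and 1.75 in small intestine, 1.75 and 1.78 in adjacent tissue, and 0.28, 0.87 and 0.56 in adenoma. On the other arrays it read 0.78, 0.48 and 1.99 in colon, and -0.74, -1.44 and -0.92 in CT26. The adenoma arrays lay below every small intestine and adjacent array, the CT26 arrays lay below every tissue array, and colon replicate 3 was as high as small intestine. From small intestine to adenoma the mean went from 1.69 ± 0.12 (SD, n = 3) to 0.57 ± 0.30 (SD, n = 3), a log2 difference of -1.12 (SE 0.20, adjusted p = 0.0038) that missed the fold threshold. Against adjacent tissue the difference was -1.19 (SE 0.21, adjusted p = 0.0186), which passed neither threshold. CT26 was 4.34-fold lower than colon (log2 difference -2.12, SE 0.45, adjusted p = 0.00555) and was called, a call that was lost with no filter on dim probes, with slide as a block, and without colon replicate 1 or any 1 CT26 array (adjusted p up to 0.0246). The other probes of Ppara gave larger differences between adenoma and small intestine, -1.61 (adjusted p = 0.000941) and -1.38 (adjusted p = 0.000754), both of them called. One of these also passed against adjacent tissue (-1.30, adjusted p = 0.0091). In CT26 the probes disagreed: the brightest was well above background on all 3 CT26 arrays, whereas the other two were on none, at least 161-fold and at least 62.3-fold lower than in colon.

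Creb3l3 encodes CREB-H, a membrane-bound factor of liver and small intestine that works with PPAR-alpha in the fasting response. Its probe (chr10:80547080-80547139) read 6.34, 7.37 and 7.97 in small intestine, 5.97 and 5.95 in adjacent tissue and 4.98, 5.49 and 5.16 in adenoma. In colon it read -1.199, -0.54 and 5.40, and in CT26 -6.89, -7.50 and -7.46, none of the 3 well above background. The 3 groups of the small intestinal setting did not overlap and followed the order small intestine, adjacent tissue, adenoma, and colon replicate 3 read within the range of adenoma. Adenoma was 4.04-fold lower than small intestine (log2 difference -2.01, SE 0.40, adjusted p = 0.00603). That call was lost without small intestine replicate 2 or 3 or any 1 adenoma array (log2 differences from -1.64, adjusted p up to 0.0259), with no filter on dim probes, with all groups in 1 fit and with slide as a block. The difference from adjacent tissue, -0.75, did not pass (adjusted p = 0.0478). Adjacent tissue differed from small intestine by -1.26, which did not pass either (adjusted p = 0.144). CT26, with a measured mean of -7.28 ± 0.34 against 1.22 ± 3.63 in colon (SD, n = 3 each), was at least 73.5-fold lower (adjusted p = 0.00283), a bound that became 17.3-fold without colon replicate 3. This call was lost without any 1 CT26 array (adjusted p up to 0.0153), in the authors' normalized table and with normexp background correction.

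Such a bound is the mean of colon over the mean, in CT26, of the weakest signal on each array that still counted as well above background (or the probe's own signal where that was higher). Pdk4, Ehhadh and Creb3l3 entered the test of CT26 against colon through colon alone, so that they could pass it in 1 direction.

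Cpt1a encodes carnitine palmitoyltransferase 1a, which commits long-chain fatty acids to entry into the mitochondrion. Its probe (chr19:3385374-3385433) read 3.98, 3.18 and 3.42 in small intestine, 3.73 and 3.61 in adjacent tissue, 3.67, 3.87 and 3.60 in adenoma and 3.98, 4.04 and 3.34 in colon. In CT26 it read 0.53, 2.54 and 1.83. The 4 tissue groups overlapped, and the CT26 arrays lay below all of them and spread widely. Adenoma differed from small intestine by 0.19 (SE 0.24, 95% interval -0.37 to 0.75, adjusted p = 0.519). CT26 was 4.45-fold below colon in the mean (log2 difference -2.15, SE 0.52), and its adjusted p of 0.0103 just missed the threshold. Without colon replicate 3 it passed, at -2.37 (adjusted p = 0.0097). The second probe of Cpt1a read -1.75 for the same difference (adjusted p = 0.0193). Within slide 1 the difference was -2.85 and within slide 2 -1.13.

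Acadm encodes medium-chain acyl-CoA dehydrogenase, which takes the first step of mitochondrial beta-oxidation. Its probe (chr3:153585670-153585729) read 5.09, 5.17 and 5.30 in small intestine, 4.50 and 4.51 in adjacent tissue and 3.58, 3.26 and 3.31 in adenoma. The colon arrays read 4.73, 4.41 and 4.88, and those of CT26 3.25, 4.94 and 4.33. Small intestine lay above every other array and adenoma below every other tissue array, with adjacent tissue in between. It fell 3.48-fold from small intestine to adenoma (log2 difference -1.80, SE 0.17, 95% interval -2.19 to -1.41, adjusted p = 0.000305). Against adjacent tissue the difference was -1.12 (SE 0.17, adjusted p = 0.0119), short of both thresholds. CT26 differed from colon by -0.50 (adjusted p = 0.39), with groups that overlapped, and adenoma from colon by -1.29 (SE 0.21, adjusted p = 0.0153).

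Ehhadh encodes the peroxisomal bifunctional enzyme, which carries out the middle steps of peroxisomal beta-oxidation and is a textbook target of PPAR-alpha. Its probe (chr16:21761914-21761973) read 3.005, 3.33 and 3.75 in small intestine, 2.32 and 2.47 in adjacent tissue and 1.12, 1.14 and 0.90 in adenoma. Colon gave 1.46, 1.38 and 2.03, and CT26 gave -6.84, -6.60 and -7.38, none well above background. No group overlapped its neighbour in the order small intestine, adjacent tissue, colon, adenoma, CT26. By the brightest probe of each gene, it was the single member called against both normal references of adenoma. Another probe of Ppara was also called against both. The fall was 4.94-fold from small intestine (log2 difference -2.31, SE 0.22, adjusted p = 0.000363) and 2.53-fold from adjacent tissue (-1.34, SE 0.16, 95% interval -1.74 to -0.94, adjusted p = 0.00738). The latter call was lost when any 1 array was left out (-1.42 to -1.26, adjusted p from 0.0164 to 0.0447) and with slide or replicate number as a block. CT26, with a measured mean of -6.94 ± 0.40 against 1.63 ± 0.35 in colon (SD, n = 3 each), was at least 97.3-fold lower (adjusted p = 1.79e-06), or at least 84.6-fold without colon replicate 3.

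Angptl4 encodes a secreted inhibitor of lipoprotein lipase that responds to PPARs, fasting and low oxygen. Its probe (chr17:33911880-33911939) read 5.87, 5.43 and 5.25 in small intestine, against 2.49 and 2.43 in adjacent tissue and 2.69, 3.01 and 2.33 in adenoma. In colon it read 1.54, 0.24 and 2.55, and in CT26 4.45, 1.95 and 2.15. Small intestine stood above all other arrays, and the other 4 groups overlapped one another in part. Adenoma was 7.13-fold lower than small intestine (log2 difference -2.83, SE 0.25, 95% interval -3.42 to -2.25, adjusted p = 0.00025). It did not differ by test from adjacent tissue (0.22, SE 0.23, adjusted p = 0.518), and adjacent tissue was 8.29-fold below small intestine in the mean (-3.05, SE 0.26, 95% interval -3.68 to -2.42, adjusted p = 0.0286), a difference of the same size that did not reach the p threshold with 2 arrays. The low level was thus measured in both kinds of APCmin/+ tissue, adenoma or not. Colon read 16.8-fold below small intestine in the mean (-4.07, SE 0.57, adjusted p = 0.0492), and without colon replicate 3 the difference was -4.63 and passed (24.7-fold, adjusted p = 0.00199). Between CT26 and colon it was 1.41 (SE 0.80, adjusted p = 0.178), with 3.07 within slide 1 and -0.09 within slide 2. 9 genes induced by low oxygen summed to 500 to 819 in small intestine, 494 to 532 in adjacent tissue and 452 to 555 in adenoma, in units of the 75th percentile signal, and 7 adipocyte markers to 3.12 to 50.3, 7.53 to 9.13 and 4.21 to 5.90. Of those 9 genes 2 were called higher in adenoma than in small intestine and none lower, with a median difference of -0.03. The part of these cells and genes in the level of Angptl4 was not tested.

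Pdk4 encodes a kinase that shuts off pyruvate dehydrogenase when fat is burned in place of glucose. Its probe (chr6:5433441-5433500) read -0.30, 1.51 and -0.43 in small intestine, -0.31 and 1.53 in adjacent tissue and -0.47, 0.10 and -0.05 in adenoma. In colon it read -0.40, -0.79 and -2.21, and in CT26 -6.88, -7.41 and -7.43, none well above background. The 4 tissue groups overlapped, except that every colon array lay below both adjacent arrays. The high arrays, replicate 2 of small intestine and replicate 2 of adjacent tissue, were both on slide 2. Adenoma differed from small intestine by -0.40 (SE 0.51, 95% interval -1.60 to 0.80, adjusted p = 0.529), with 0.10 within slide 1 and -1.40 within slide 2. CT26, with a measured mean of -7.24 ± 0.31 against -1.13 ± 0.95 in colon (SD, n = 3 each), was at least 14.4-fold lower (adjusted p = 5.05e-05), or at least 20.9-fold without colon replicate 3.

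Plin2 encodes perilipin 2, the coat protein of lipid droplets in most cells. Its probe (chr4:86302847-86302906) read 4.30, 4.43 and 4.55 in small intestine, 3.76 and 3.82 in adjacent tissue and 3.96, 4.09 and 3.46 in adenoma. Levels in colon were 4.47, 3.71 and 3.19, and in CT26 6.88, 4.66 and 4.90. The CT26 arrays were the highest of all 14, and among tissues small intestine overlapped with colon alone. Neither difference passed: adenoma read -0.59 against small intestine (SE 0.21, adjusted p = 0.0498) and CT26 1.69 against colon (SE 0.63, adjusted p = 0.0555), 2.18 within slide 1 and 0.83 within slide 2.

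CT26 replicate 1 departed from the other 2 arrays of that line in 4 of the genes. It was the lowest for Cpt1a and Acadm and the highest for Angptl4 and Plin2, by at least 1 log2 unit in each. Replicate 3, on the same slide, read close to replicate 2 for Angptl4 and Plin2.

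**Figure D2:**
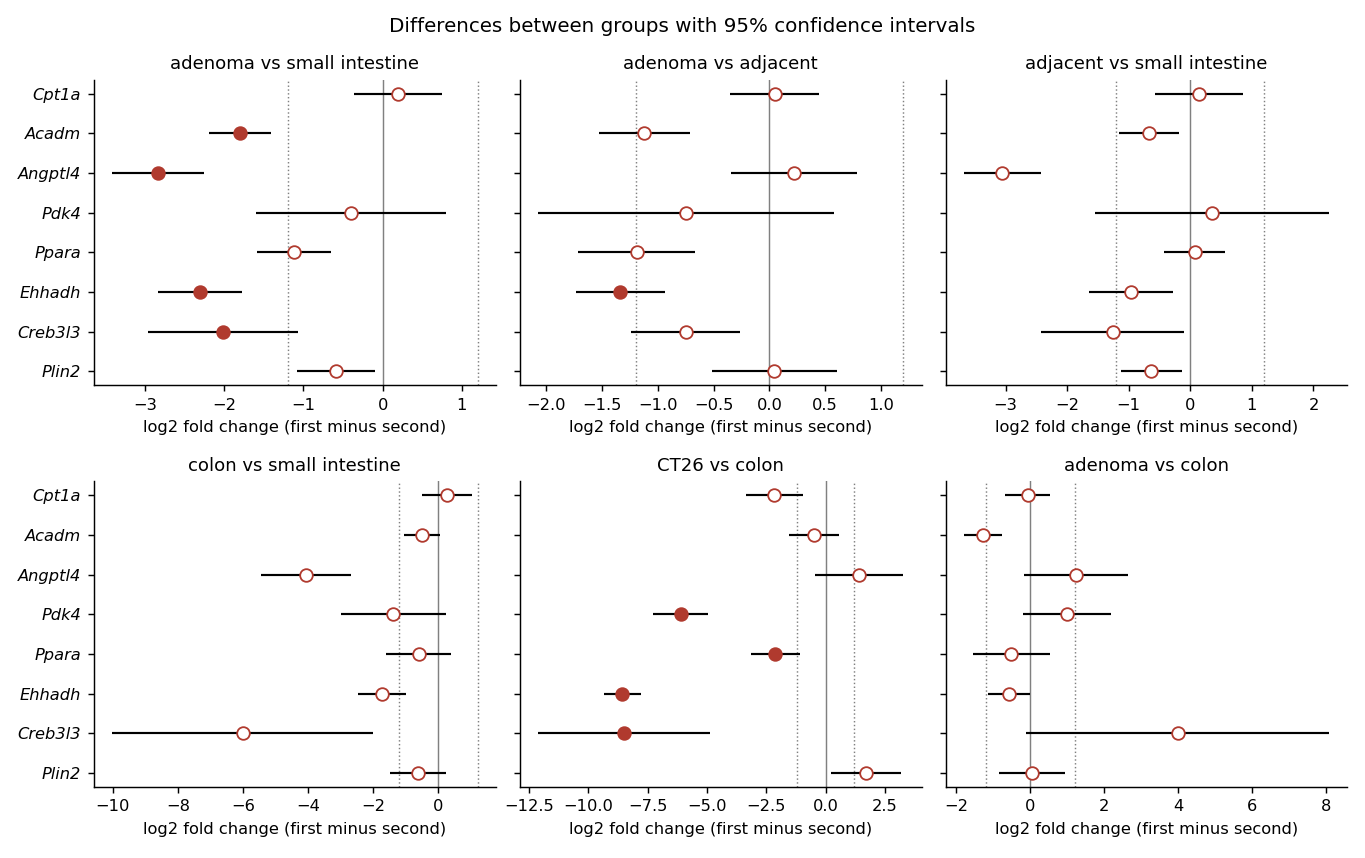
Log2 fold change (x axis) of each of the 8 genes (y axis) in the comparisons between groups, with 95% intervals from limma; filled points were called, and dotted lines mark a log2 difference of 1.2 in either direction. Acadm, Ehhadh, Angptl4 and Creb3l3 are filled on the lower side in adenoma against small intestine, Ehhadh alone in adenoma against adjacent tissue, and Pdk4, Ehhadh, Creb3l3 and Ppara in CT26 against colon, where the first 3 were not well above background in CT26.

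Over the set, adenoma against small intestine gave 4 of 8 genes lower (Acadm, Angptl4, Ehhadh, Creb3l3) and none higher, where 11.1% of the 22094 genes tested, with 1 probe each, were lower and 11.3% higher. 7 of the 8 differences were negative, with a median of -1.46 against -0.15 over all genes tested, and in 6 of the 8 the arrays of the groups did not overlap, as for 65.2% of all genes. Adenoma against adjacent tissue gave 1 of 8 lower (Ehhadh), where 1.78% of the genes tested were lower and 2.40% higher, with a median of -0.75 against -0.04 and 4 genes whose groups did not overlap (57.1% of all genes). Both comparisons use the same adenoma arrays.

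Adjacent tissue against small intestine gave 0 of 8 by limma at the adjusted threshold, as for nearly every gene (0.00924% of 21641 genes called in either direction, and 8750 of 28832 probes with an unadjusted p below 0.05). The median was -0.65 against -0.10 over all genes, and 5 of the 8 did not overlap (52.9% of all genes). By the sample list the 2 adjacent arrays are pieces of 1 mouse, and the same small intestine arrays serve in the comparison with adenoma.

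Colon against small intestine also gave 0 of 8 by limma with all arrays (0.00969% of 20644 genes called in either direction, 6413 of 27298 probes with an unadjusted p below 0.05), with a median of -1.01 against -0.08 and 4 genes that did not overlap (29.1% of all genes). Without colon replicate 3, 3 of 8 were lower, where 3.90% of genes were lower and 3.34% higher: Creb3l3 by 8.09 on the log2 scale (adjusted p = 0.000573), Angptl4 by 4.63 and Ehhadh by 1.94 (3.84-fold, adjusted p = 0.00792). That replicate read nearer to small intestine than to the other colon arrays for Creb3l3, Ppara, Acadm and Cpt1a, and nearer to the other colon arrays for Angptl4, Pdk4, Ehhadh and Plin2.

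**Figure D3:**
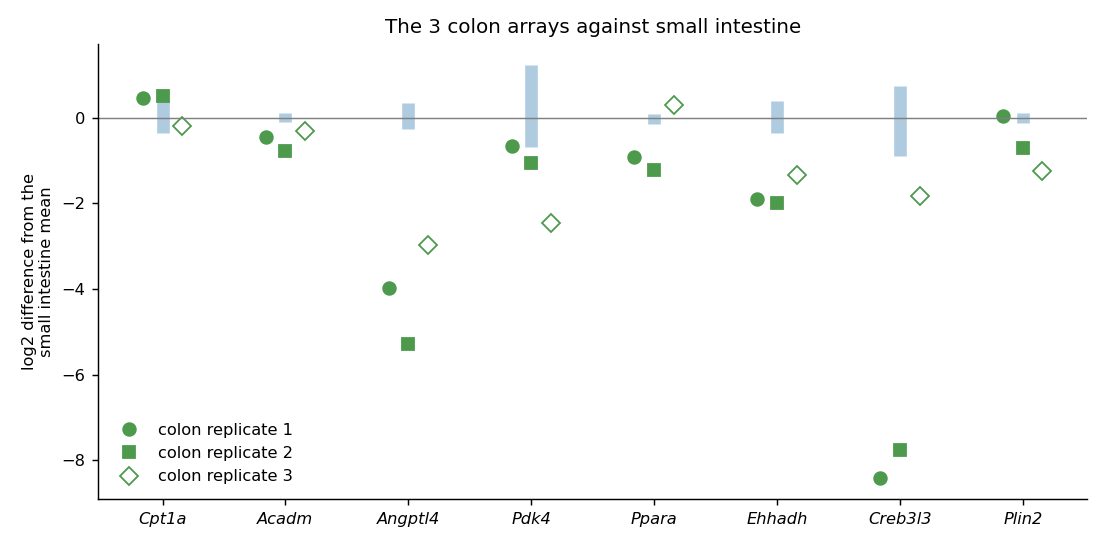
Log2 difference of each colon array from the small intestine mean (y axis) for the 8 genes (x axis); bars span the 3 small intestine arrays and the open diamond is colon replicate 3. For Creb3l3 the diamond lies at -1.83 and the mean of the other colon arrays at -8.09, and for Angptl4 they lie at -2.96 and -4.63.

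CT26 against colon gave 4 of 8 lower (Pdk4, Ehhadh, Creb3l3, Ppara) and none higher, where 16.2% of the 21693 genes tested were lower and 21.0% higher. The median was -2.13 against 0.32 over all genes, which counts 3 genes at fitted values although they were not well above background in CT26, and 6 of the 8 did not overlap (63.3% of all genes). Adenoma against colon gave 0 of 8 by limma (3.70% of 21861 genes called in either direction, 8269 of 29173 probes with an unadjusted p below 0.05), with a median of -0.01 against -0.06 and 2 genes that did not overlap (38.8% of all genes). Without colon replicate 3, Creb3l3 was 67.6-fold higher in adenoma than in colon (log2 difference 6.08, adjusted p = 0.00023), the 1 gene called of the 8, where 6.69% of genes were lower and 5.03% higher.

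The tumor against normal difference itself was compared between the settings by taking adenoma minus small intestine and subtracting CT26 minus colon, which share no arrays. It passed for 4 of 8 genes, where 30.8% of 23446 genes passed in either direction. For Cpt1a the difference between settings was 2.34 (SE 0.62, adjusted p = 0.00988), with a difference of 0.19 in the first setting and of -2.15 in the second. This call was lost without any 1 small intestine or adenoma array, without colon replicate 1 or 2, without CT26 replicate 3, with slide as a block and with no filter on dim probes (adjusted p up to 0.0269). For Angptl4 it was -4.25 (SE 0.95, adjusted p = 0.00376), with a fall in adenoma and a mean difference of 1.41 in CT26 that did not pass, and it was lost without small intestine replicate 1 or adenoma replicate 3 (adjusted p up to 0.0112). For Ehhadh (6.26, adjusted p = 4.44e-07) and Pdk4 (5.71, adjusted p = 0.000147) it rests on CT26 values that were not well above background. Acadm (-1.30, adjusted p = 0.0569), Ppara (0.998, adjusted p = 0.138), Plin2 (-2.28, adjusted p = 0.0261) and Creb3l3 (6.49, adjusted p = 0.0143) did not pass. The value for Ppara is that of its brightest probe. Its other probes gave 7.35 (adjusted p = 6.61e-08) and 6.70 (adjusted p = 1.78e-07). Both were called, and both rest on CT26 values that were not well above background. Creb3l3 passed without any 1 colon array, at 4.40 without replicate 3 (adjusted p = 0.000127).

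Beyond the 8 genes, 82 others of the same pathways were read from lists of enzymes, transporters and regulators. Of the 79 tested between adenoma and small intestine, 29 were lower and 7 higher, with a median of -1.11 against -0.15 over all genes. Over all genes tested, 11.1% were lower and 11.3% higher. Peroxisomal beta-oxidation had the largest share of lower genes among lists of more than 1 call, 8 of 11 (median -1.56), among them Scp2, a thiolase and sterol carrier, 5.08-fold lower and Ech1, an isomerase for unsaturated chains, 3.07-fold lower. In activation and the carnitine shuttle 7 of 12 were lower and 1 higher. Slc25a20, the carnitine carrier, fell 3.49-fold (-1.81, adjusted p = 0.000718), Cpt2, which releases the acyl group inside, fell 2.33-fold (-1.22, adjusted p = 0.00264), and the muscle form Cpt1b read -1.47 but did not pass (adjusted p = 0.015). Crat, carnitine acetyltransferase, was 5.81-fold lower and Slc27a2, an importer of very long chains, 6.15-fold lower, whereas Acsl4, an acyl-CoA synthetase for arachidonic acid, was 9.76-fold higher. In mitochondrial beta-oxidation 4 of 14 were lower and none higher, namely Hadh 3.55-fold, Hadhb, the beta subunit of the trifunctional protein, 2.45-fold (-1.29, adjusted p = 0.0023), Etfdh 2.44-fold and Eci1 2.42-fold. Its long-chain dehydrogenases and the alpha subunit of the trifunctional protein did not pass both thresholds, with -1.11 for Acadvl (adjusted p = 0.00606), 0.50 for Acadl (adjusted p = 0.102) and -0.99 for Hadha (adjusted p = 0.00535).

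Among the other receptors and coactivators, 2 of 8 were lower in adenoma than in small intestine. Ppard read -1.17 (adjusted p = 0.00272) and missed the fold threshold. Ppargc1a, the coactivator of mitochondrial genes, read -1.91 at an adjusted p just above the threshold (0.01001), and Pparg read 1.48 (adjusted p = 0.0168). Among other PPAR targets, Vnn1, the pantetheinase, was 34.6-fold lower (-5.11) and Acot1, an acyl-CoA thioesterase, 9.05-fold higher (3.18). Acot1 and Acot2 are close copies, as are Acaa1a and Acaa1b, and a probe may read both. In the lipid droplet list 5 of 12 were lower and 2 higher. Lipe, hormone-sensitive lipase and also an adipocyte marker, was 8.93-fold lower, Dgat1, the last enzyme of triglyceride synthesis, 6.44-fold lower, and Cidea, a droplet protein of brown fat, 26.2-fold higher (4.71). Of the pyruvate dehydrogenase kinases and phosphatases 1 of 5 was lower (Pdk2, 4.55-fold), and of the lipoprotein lipase axis, on which Angptl4 acts, 2 of 3 were higher, Gpihbp1 3.08-fold and Lmf1 2.60-fold.

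**Figure D4:**
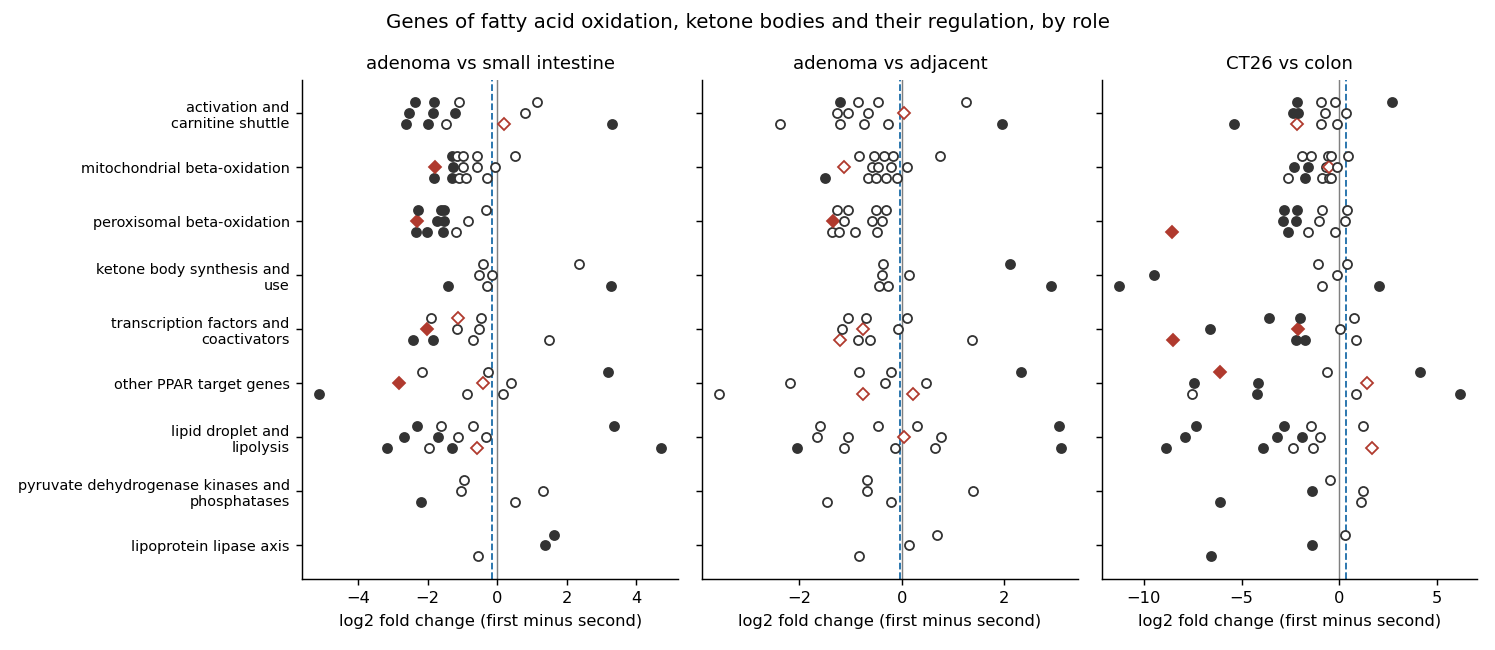
Log2 fold change (x axis) of every tested gene of each pathway list (y axis) in adenoma against small intestine, adenoma against adjacent tissue and CT26 against colon; diamonds are the 8 genes, circles the other listed genes, filled symbols were called, and the dashed line is the median of all genes. In the peroxisomal list 8 of 11 other genes are filled on the lower side in adenoma and 5 of 11 in CT26.

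Against adjacent tissue, 3 of the 79 other genes were lower in adenoma and 6 higher, with a median of -0.47 against -0.04. Over all genes tested, 1.78% were lower and 2.40% higher. The lower ones were Lipe (-2.04), Hadh, the short-chain 3-hydroxyacyl-CoA dehydrogenase (-1.48), and Slc27a4, a fatty acid transporter of the enterocyte (-1.203). Cidea (3.05), Bdh2 (2.92), Acot1 (2.33) and Acsl4 (1.96) were higher. None of the 78 tested passed between adjacent tissue and small intestine (median -0.48) or, with all arrays, between colon and small intestine (median -0.66). Of all genes tested 0.00924% and 0.00969% passed in either direction. Without colon replicate 3 the comparison of colon with small intestine gave 19 lower and 2 higher of 79. There 3.90% of all genes tested were lower and 3.34% higher.

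CT26 was lower than colon in 33 of 79 and higher in 4, with a median of -1.39 against 0.32. Over all genes tested, 16.2% were lower and 21.0% higher. Without colon replicate 3, 34 of 80 were lower and 5 higher, with a median of -1.12 against 0.32. In that fit 39.5% of all genes tested passed in either direction, 4499 of 23185 lower and 4658 higher. The values that follow are with all colon arrays unless stated. 5 of 11 peroxisomal genes were lower, with Acaa1b 7.32-fold, Acaa1a 6.11-fold and Scp2 4.64-fold lower. Of the mitochondrial list 3 of 14 were lower, with Acadvl 3.41-fold (adjusted p = 0.000952) and Acaa2 4.91-fold lower, while Hadha (-0.87, adjusted p = 0.0252) and Acadl (-0.58, adjusted p = 0.262) did not pass. Without colon replicate 3, Acaa2 did not pass (5.37-fold lower, adjusted p = 0.0129). In the carnitine list 4 of 11 were lower and 1, Acsl4 (6.50-fold), higher. Slc25a20 was 5.16-fold lower and Cpt2 4.47-fold lower, and Cpt1b read -0.92 (adjusted p = 0.112). Among factors 5 of 8 were lower. Pparg, the receptor of fat cells and colonocytes, was 98.1-fold lower (adjusted p = 6.62e-05), Ppard 4.58-fold and Ppargc1a 4.03-fold lower. In the lipid droplet list 7 of 12 were lower, among them Cideb (160-fold) and Plin4 (7.07-fold), and among other PPAR targets 3 of 8 were lower and 2 higher, with Ucp3 18.1-fold lower. Fgf21, the fasting hormone of liver, was not well above background in any tissue and read -1.03, -1.23 and 0.83 in CT26, at least 16.2-fold higher than in colon (adjusted p = 0.000142; measured means -0.48 and -6.67). It entered that test through CT26 alone, so that it could pass in 1 direction only.

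Between adenoma and colon 3 of 79 were higher and 1 lower, near the shares over all genes tested, 2.07% higher and 1.63% lower. Cidea (4.52), Bdh2 (3.69) and Gpihbp1 (1.52) were higher, and Plin4 (-2.48) lower. Without colon replicate 3 there were 10 higher and 8 lower of 79, where 5.03% of all genes tested were higher and 6.69% lower.

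Among genes of ketone body metabolism, Bdh1, which reduces acetoacetate to 3-hydroxybutyrate, read between 4.54 and 5.25 on all 11 tissue arrays and was not well above background in CT26, at least 920-fold lower than in colon (adjusted p = 1.04e-06; measured means -6.42 and 4.87). It entered that test through colon alone and could pass in 1 direction only. Adenoma differed from small intestine by -0.28 (adjusted p = 0.182). Bdh2, a cytosolic relative, read 2.78, 2.93 and 2.75 in adenoma and at most 1.73 on every other array. It was 7.55-fold higher in adenoma than in adjacent tissue (2.92, adjusted p = 0.00351), 12.9-fold higher than in colon, and 4.11-fold higher in CT26 than in colon (2.04, adjusted p = 0.00114). Against small intestine, where its arrays spread from -1.07 to 1.73, the difference of 2.35 did not pass (adjusted p = 0.0191).

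**Figure D5:**
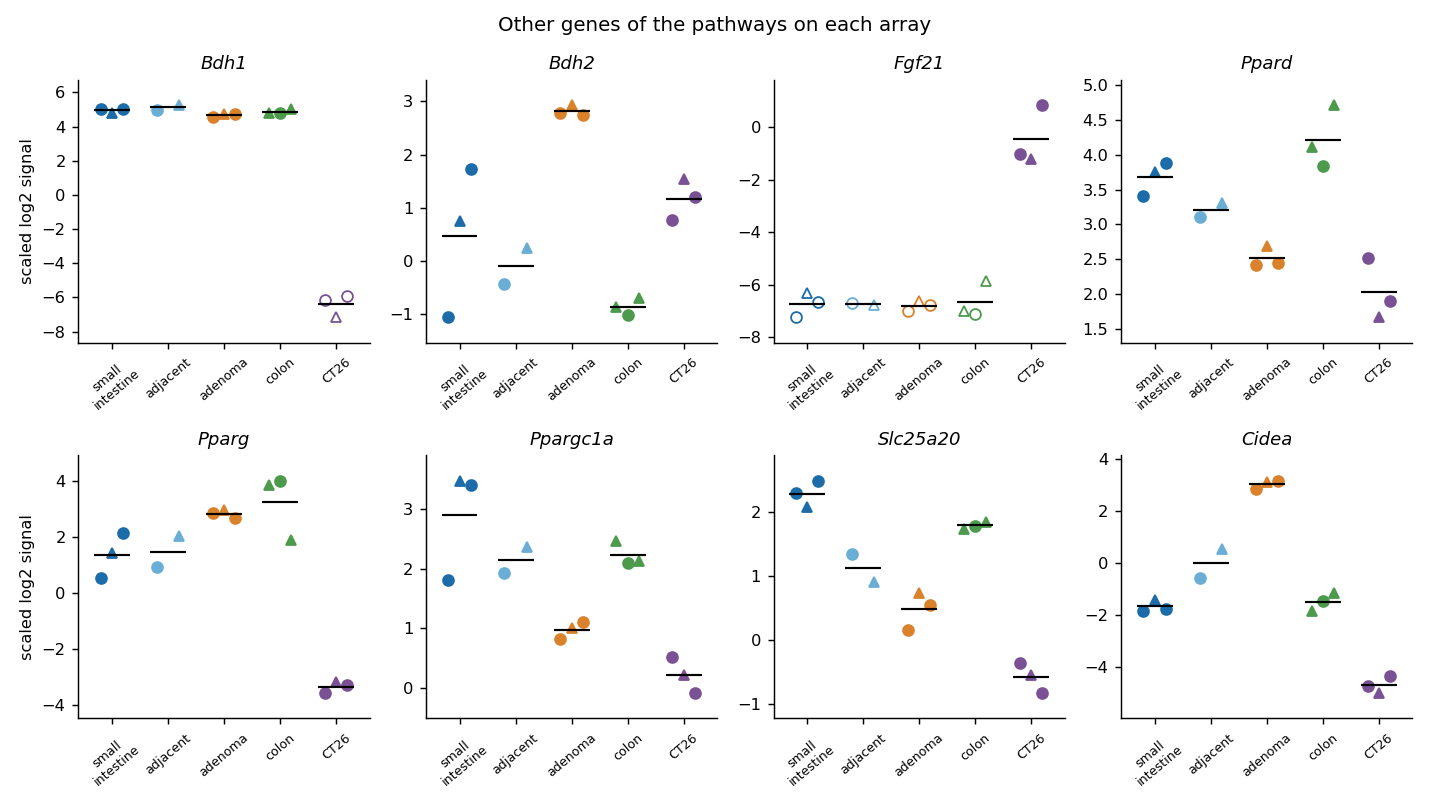
Scaled log2 signal (y axis) of 8 other genes of the pathways on all 14 arrays by group (x axis), drawn as in the plot of the 8 members. Bdh1 reads between 4.54 and 5.25 on every tissue array and is open in CT26, Bdh2 is highest in adenoma, and Fgf21 is filled in CT26 alone of the 5 groups.

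Markers of cell types were read on the same arrays. The 10 enterocyte markers of the small intestine were all well above background in small intestine, adjacent tissue and adenoma, and their summed level was 1210 to 3019 in small intestine, 1130 to 1263 in adjacent tissue, 244 to 372 in adenoma, 13.4 to 1702 in colon and 2.57 to 3.91 in CT26, where Alpi, Lct, Apoa4, Apob, Slc5a1 and Treh were not above background. Smooth muscle markers summed to 137 to 511 in small intestine, 142 to 583 in adjacent tissue and 91.8 to 113 in adenoma. Of the 7 macrophage markers 1 was called higher and 1 lower in adenoma than in small intestine, with a median difference of 0.33. Their sums were 65.0 to 95.3 in small intestine, 36.7 to 45.6 in adjacent tissue and 15.9 to 24.3 in adenoma. The 5 epididymis markers, of which Gpx5 alone was above background, summed in the same groups to 0.05 to 0.07, 12.3 to 19.6 and 2.57 to 4.45. Of 8 markers of epithelium, all were measured in tissue, whereas Epcam, Cdh1, Krt19, Elf3 and Vil1 were not above background in CT26. The part of these cell types in the levels of the 8 genes was not tested. Acadm, Ehhadh and Creb3l3 were highest in small intestine, lower in adjacent tissue and lowest of the 3 in adenoma. The mean sums of the enterocyte, colonocyte, macrophage and adipocyte markers had the same order, and that of the epithelium markers did not. The means of Cpt1a, Angptl4, Pdk4, Plin2 and the brightest probe of Ppara did not follow this order. Those of the other probes of Ppara did.

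The genes nearest to each of the 8 in level were found by the root mean square difference of log2 levels over the 14 arrays, each gene centered on its own mean. For Creb3l3 they were Ms4a10 (0.55), Prap1 (0.67) and Alpi (0.85), the last being the intestinal alkaline phosphatase of the enterocyte brush border. For Ehhadh they were Myo7b (0.39), a brush border myosin, Cfb (0.40) and Ttc22 (0.41), each over 19937 genes. For Acadm they were Slc25a42 (0.26), which carries coenzyme A into mitochondria, Tsc22d4 (0.29) and Kifc3 (0.29), over 16022 genes. For Angptl4 they were Gramd1b (0.73), Ttc39c (0.81) and BB667892 (0.87), and for Pdk4 Rtn4rl1 (0.66), Nmnat3 (0.67) and Ccl27a (0.67). For Cpt1a the nearest was 0610011F06Rik (0.26), for Plin2 AA987161 (0.24) and for Ppara, among named genes, Fam190a (0.30). By the brightest probes, the closest pair within the 8 was Cpt1a and Ppara, at 0.87. The other probes of Ppara, not well above background in CT26, were not compared in this way.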

How the data were processed

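One-color arrays of 14 samples in 5 groups were used, grouped by the labels. The authors deposited 1 scanner file per array from Feature Extraction 10.7.3.1, with a processed signal that is a background-corrected intensity that was not yet scaled from array to array. A table of log2 values, which the authors had made comparable across arrays by a method not given in the sources used here, served as an alternative. Its 28 further columns of values per sample were not used, and neither were 21 columns with the authors' own fold changes and p-values.

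Each array holds 62976 spots. Control spots and the 103 to 206 spots per array marked as outliers were left out, and log2 of the intensity minus the 75th percentile of the array was taken. From 46.8% to 58.2% of an array's probes passed the scanner's test against background, and the number of arrays limits the precision. To be tested, a probe had to be well above background throughout 1 or more of the groups compared, so a gene dim in the other group can enter. Each gene was represented by the probe whose mean over all 14 arrays was highest. Pairs of groups were fitted with limma 3.58.1 in R 4.3.3, and the difference of differences over 4 groups; the fits were tested on simulated data. Tables were made with pandas 2.3.3 under Python 3.11.15. Eci1 and Eci2 were named through RefSeq accessions from older symbols.

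The 8 genes and the lists were chosen with earlier results of these data known. Named were the 8 genes, 14 fixed pathway genes (not all of which are reported here) and, per comparison, up to 8 called pathway genes with the largest change whose probe was well above background throughout both groups. Outside this rule, Bdh2, Pdk2, Lmf1, Gpihbp1, Scp2, Ech1, Hadhb, Etfdh and Eci1 were also named with values after these were seen. Alternatives were the authors' table, quantile normalization, normexp correction of the background with an offset of 50, filters on dim probes that were stricter or absent, all groups in 1 fit, an intensity trend, a block for slide or for replicate number (and, chosen after seeing the data, for the numbers in the titles), other thresholds, any probe of a gene, and leaving out each array. Replicate numbers were not taken to pair samples: with 3 numbers no comparison had all correlations of deviations above 0.1, and adjacent tissue has only 2 arrays.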

Additional observations from a re-analysis of the deposited data

Results flagged for a closer look

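For 4 genes the difference of tumor from normal in the small intestinal setting (adenoma minus small intestine) differed by test from that in the colon setting (CT26 minus colon), in limma's contrast of the 4 group means with Benjamini-Hochberg adjustment. For Cpt1a the difference between settings was 2.34 (95% interval 0.98 to 3.71, adjusted p = 0.00988), and its second probe gave 1.62 (adjusted p = 0.037). For Angptl4 it was -4.25 (95% interval -6.32 to -2.17, adjusted p = 0.00376), with CT26 replicate 1 at 4.45 against 1.95 and 2.15 on the other CT26 arrays. For Pdk4 it was 5.71 (95% interval 4.01 to 7.41, adjusted p = 0.000147) and for Ehhadh 6.26 (95% interval 5.37 to 7.15, adjusted p = 4.44e-07), and in both the CT26 arrays were not well above background, so that these sizes depend on values at background. Of all genes tested 30.8% passed the same test. Ppara did not pass by its brightest probe, whereas its other probes, not well above background in CT26, did.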

How the results depend on the processing

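Of 123 alternative counts of called genes 98 stayed within 1.5 times the count reported, 9 were higher and 16 lower. For adenoma against small intestine the count was 4 and every alternative gave a count within 1.5 times of it (Creb3l3 being the gene lost), from 3 to 4 when 1 array was left out. For adenoma against adjacent tissue the 1 called gene, Ehhadh, was lost (0 called) with no filter on dim probes, with all 5 groups in 1 fit, with slide as a block, with the replicate block by either numbering and without any 1 array (0 to 0), and the count was 4 at an adjusted p of 0.05 without a fold threshold and 2 when any probe of a gene could be called. For adjacent tissue against small intestine 0 became 1 at an adjusted p of 0.05 and stayed 0 to 0 when 1 array was left out. For colon against small intestine 0 became 2 with all groups in 1 fit and 1 at an adjusted p of 0.05, and ranged from 0 to 3 when 1 array was left out, 3 without colon replicate 3. For CT26 against colon 4 became 2 with probes well above background in all groups compared, where the 3 genes at background in CT26 could not be tested and Cpt1a passed beside Ppara, and ranged from 2 to 5, 2 without CT26 replicate 1 or CT26 replicate 3 and 5 without colon replicate 3. For adenoma against colon 0 became 1 with an intensity trend and 1 at an adjusted p of 0.05, and ranged from 0 to 1. For the difference of differences 4 became 2 with probes well above background in all groups, and ranged from 2 to 5, 2 without small intestine replicate 1 or adenoma replicate 3. Beyond what is said here, the cause was not tested.

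With the replicate block the counts were 4 for adenoma against small intestine, 4 for CT26 against colon and 0 for each other pair of groups. The deviations of same-numbered arrays from their group means correlated at -0.00997 and -0.0356 between adenoma and adjacent tissue. The titles number the adjacent arrays 2 and 3 where the source names give 1 and 2. A replicate block by the numbers of the titles, chosen after seeing the data, gave 0 for adenoma against adjacent tissue (Ehhadh -1.37, adjusted p = 0.0885, with 1 residual degree of freedom) and 0 for adjacent tissue against small intestine, and turned the sign of the small difference of Plin2 from adjacent tissue (-0.020). By these numbers the deviations correlated at 0.0356 and 0.0257 between adenoma and adjacent tissue, and at -0.141 and 0.207 between adjacent tissue and small intestine. With 2 adjacent arrays the deviations of 1 mirror those of the other, so a change of partner only turns the sign of a correlation. Neither numbering was taken as a pairing.

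Of 1074 alternatives for single genes 954 were counted as the same. For a refit this meant the same direction and the same side of the threshold. For a difference within 1 slide, which has no p-value, it meant lying within 1 residual SD of the reported difference. Some of the latter turned sign, such as Pdk4 in adenoma against small intestine (0.10 within slide 1, -0.40 reported). The small differences of adenoma from adjacent tissue turned sign in the authors' table (-0.023 for Cpt1a, -0.047 for Plin2) and with quantile normalization (-0.018 and -0.035). When 1 array was left out, differences that had not passed turned sign for Pdk4 (-0.74 to 0.22 for adenoma against small intestine, -1.67 to 0.17 against adjacent tissue, -0.57 to 1.27 for adjacent tissue against small intestine), Cpt1a (-0.029 to 0.11 for adenoma against adjacent tissue, -0.031 to 0.37 for adjacent tissue against small intestine, -0.29 to 0.052 for adenoma against colon) and Plin2 (-0.082 to 0.23 for adenoma against adjacent tissue, -0.26 to 0.39 for adenoma against colon). Groups of 2 or 3 arrays, and probes at background in CT26, limit all sizes given.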
